A study of Mus musculus with 4 samples.

Results

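Dlx5/Runx2 mesenchyme was the name given to 1145 cells of the fetal mouse penis in which at least 3 of 7 genes, Cpm, Dlx5, Dlx6os1, Lrfn5, Runx2, Dync1i1 and Bmp5, were detected and Epcam was not. They were 3.40% of the 33704 cells that held 1000 to 10000 unique molecular identifiers (UMIs, each standing for 1 captured transcript), with at most 25% of UMIs from mitochondrial genes and at most 25% from hemoglobin genes, out of 47040 deposited cells. The cells came from external genitalia of male embryos at E16.5, dissociated and sequenced as 4 libraries of 10x 3′ single-cell RNA-seq, 2 of each genotype. Control embryos, DTA-, carried a floxed diphtheria toxin A allele (Rosa-LSL-DTA) without Nr5a1-Cre. Ablated embryos, DTA+, carried Nr5a1-Cre Tg/+ with Rosa-LSL-tdTomato and Rosa-LSL-DTA, so that cells with Cre activity expressed the toxin. Nr5a1-Cre also acts in the adrenal gland and the testis, so in DTA+ embryos the genital cells and the organs that make steroids were affected together. The labels do not say whether a library was 1 embryo or a pool. The p-values for expression below set a difference against a spread between libraries. That spread was estimated largely from all genes together and not from each gene alone. The libraries held 300 (DTA- replicate 1), 160 (DTA- replicate 2), 183 (DTA+ replicate 1) and 502 (DTA+ replicate 2) of these cells, with 1570860, 752546, 773955 and 2110138 UMIs and a median of 4774.5, 4014, 3793 and 3637.5 UMIs per cell, and all values below are given in this order of libraries. Between 31 and 48 cell barcodes were shared by any pair of libraries, and 0 of them were in Dlx5/Runx2 mesenchyme. The labels held on the genes that check them: all 4 libraries held Ddx3y, a Y-linked gene, and tdTomato was counted in the DTA+ libraries alone.

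Dlx5 and Dlx6 encode homeodomain transcription factors that pattern the jaws, the distal limb and the genital tubercle, and Dlx5 promotes expression of Runx2. Runx2 is the transcription factor that commits mesenchyme to bone, acting ahead of Sp7 (osterix) and of the genes of mineralised matrix. The mouse penis forms a bone, the os penis, and a fibrocartilage inside the glans, and Runx2, Dlx5 and Bmp ligands are also used in mesenchyme that makes no bone.

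The genes of the rule lie apart in the genome except around Dlx5. On GRCm38 (GENCODE vM21), Dlx5 spans chr6:6877805-6882085 on the minus strand, and the antisense transcript Dlx6os1 spans chr6:6820189-6871592, 6212 bases away. Dlx6os1 covers all 5235 bases of Dlx6, which is read from the plus strand, so without knowing whether strand was used in counting, UMIs of the pair cannot be told apart. Dync1i1, which encodes a dynein intermediate chain and whose exons are known to hold limb enhancers of Dlx5 and Dlx6, lies on the same chromosome at chr6:5725639-6028039, 792149 bases from Dlx6os1. Runx2 is at chr17:44495987-44814797, Cpm, a membrane carboxypeptidase, at chr10:117629500-117687352, Lrfn5, a synaptic adhesion molecule, at chr12:61523150-61858342, and Bmp5, a bone morphogenetic protein, at chr9:75775364-75900310. The 250 bases before the RefSeq start (GRCm38.p6) were available for 6 of the 7 genes. They are shown for Dlx6os1 and Runx2 because these promoters hold the letters that Dlx and Runx factors are known to bind. In Dlx6os1 (chr6:6869534-6869783, minus strand) the homeodomain core TAATTA, the same on both strands, begins 130 and 74 bases before the first of its RefSeq starts, which is the one shown. The other start (chr6:6861684-6861933) has 1 match, 174 bases before it. The core is present in 4.84% of the 32851 promoters of this length. In Runx2 (chr17:44814628-44814877, minus strand) ACCACA, the reverse complement of TGTGGT, begins 80 bases before the start, and either form is present in 14.0% of promoters. Capitals mark the matches, which are descriptions of the letters and not evidence of binding.
Dlx6os1: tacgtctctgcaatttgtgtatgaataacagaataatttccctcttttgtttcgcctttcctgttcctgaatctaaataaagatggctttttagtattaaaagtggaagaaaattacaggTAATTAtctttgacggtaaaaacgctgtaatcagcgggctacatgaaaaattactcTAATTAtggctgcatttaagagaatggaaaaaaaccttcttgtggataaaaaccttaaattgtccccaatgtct
Runx2: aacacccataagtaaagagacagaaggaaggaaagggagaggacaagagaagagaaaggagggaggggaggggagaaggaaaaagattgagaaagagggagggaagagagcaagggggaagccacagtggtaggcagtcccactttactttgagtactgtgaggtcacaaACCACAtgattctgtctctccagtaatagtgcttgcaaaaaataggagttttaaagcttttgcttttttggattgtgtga

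The cells were chosen by detection of the 7 genes, so the values of these genes are given as a description with no test. Dlx5 was the most widely detected, in 78.1% to 89.0% of the cells of a library, against 5.74% to 10.4% of other mesenchymal cells. Runx2 was found in 42.3%, 55.0%, 29.5% and 35.1% of the cells, against 4.15% to 5.16% of other mesenchymal cells. Background from free RNA was gauged in macrophages, which should lack these genes and had median depths of 5306 to 5762 UMIs: Runx2 was detected in 3.09% to 7.84% of them, Cpm in at most 4.26% and each of the other 5 genes in at most 2.17%. The percent of other mesenchymal cells with Runx2 fell within the range in macrophages. By library, Runx2 was at 11.6, 11.0, 12.7 and 12.6 CPM in other mesenchymal cells. In macrophages it was at 5.92, 14.4, 5.96 and 7.70 CPM, above other mesenchymal cells in DTA- replicate 2 alone. In Dlx5/Runx2 mesenchyme the rule itself selected for Runx2, so its higher level there cannot be set against this background. At the edge of the rule, 723 cells (63.1%) held exactly 3 of the genes and 1577 cells just outside it held exactly 2. Those with 2 had Dlx5 in 51.9% to 66.4% and Runx2 in 16.8% to 24.0%, between the values inside the rule and those of other mesenchymal cells. By contrast 24969 Epcam-negative cells (75.3%) held none of the 7.

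Among genes of the osteogenic lineage, of which Runx2 was used by the rule, some early ones were higher in the chosen cells, the main matrix genes were lower and most late ones were at or near 0. Sp7, needed for osteoblast formation after Runx2, had summed levels of 36.9, 31.9, 14.2 and 26.1 UMIs per 1000000 UMIs of the summed cells (CPM) in Dlx5/Runx2 mesenchyme, against 2.39, 1.51, 1.89 and 3.32 in other mesenchymal cells. It was detected in 11.4% of the cells, so most of them showed no Sp7 at this depth. Alpl, the alkaline phosphatase of mineralising tissue, was at 103, 158, 65.9 and 82.0 CPM, against 21.5 to 37.4. Both genes were higher in every library. Among late genes, Spp1, Bglap2 and Dmp1 had 0 UMIs in all 4 libraries, which allows up to 0.576 CPM over the summed libraries, and Ibsp and Bglap reached at most 0.637 and 0.474 CPM. Ifitm5, a membrane protein of mineralising osteoblasts, was an exception at 5.73, 9.30, 7.75 and 8.53 CPM against 2.87 to 3.71, and was detected in 3.06% of the cells and in 1.30% of macrophages. Col1a1, the chain of type I collagen most abundant in bone, was lower than in other mesenchymal cells, at 1486, 2158, 1242 and 1232 CPM against 2163, 3228, 2858 and 1905. Sparc, a collagen-binding matrix protein, was also lower, at 0.450 times the mean level of other mesenchymal cells. Of 26 osteogenic genes fixed as a list, 16 outside the rule reached a mean of 10 CPM. 4 of these, Sp7, Dlx6, Alpl and Fgfr3, were at least 2-fold higher in all 4 libraries and 2, Sparc and Twist2, at least 2-fold lower, with a median log2 ratio of 0.15. Since UMIs of Dlx6 cannot be told apart from those of the rule's Dlx6os1, nothing is read from Dlx6, which leaves 3 higher genes. Over all 9187 genes at that level, 155 (1.69%) were at least 2-fold higher in all libraries and 247 (2.69%) lower, with a median of 0.03. A gene reached the level if its mean was 10 CPM in either population, so genes such as Sp7, Sox6, Dlx2, Dlx3 and Barx1 entered through Dlx5/Runx2 mesenchyme alone and Kera, Dpt and Smoc1 through other mesenchymal cells alone, and these counts and medians are descriptions that support nothing.

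**Figure D1:**
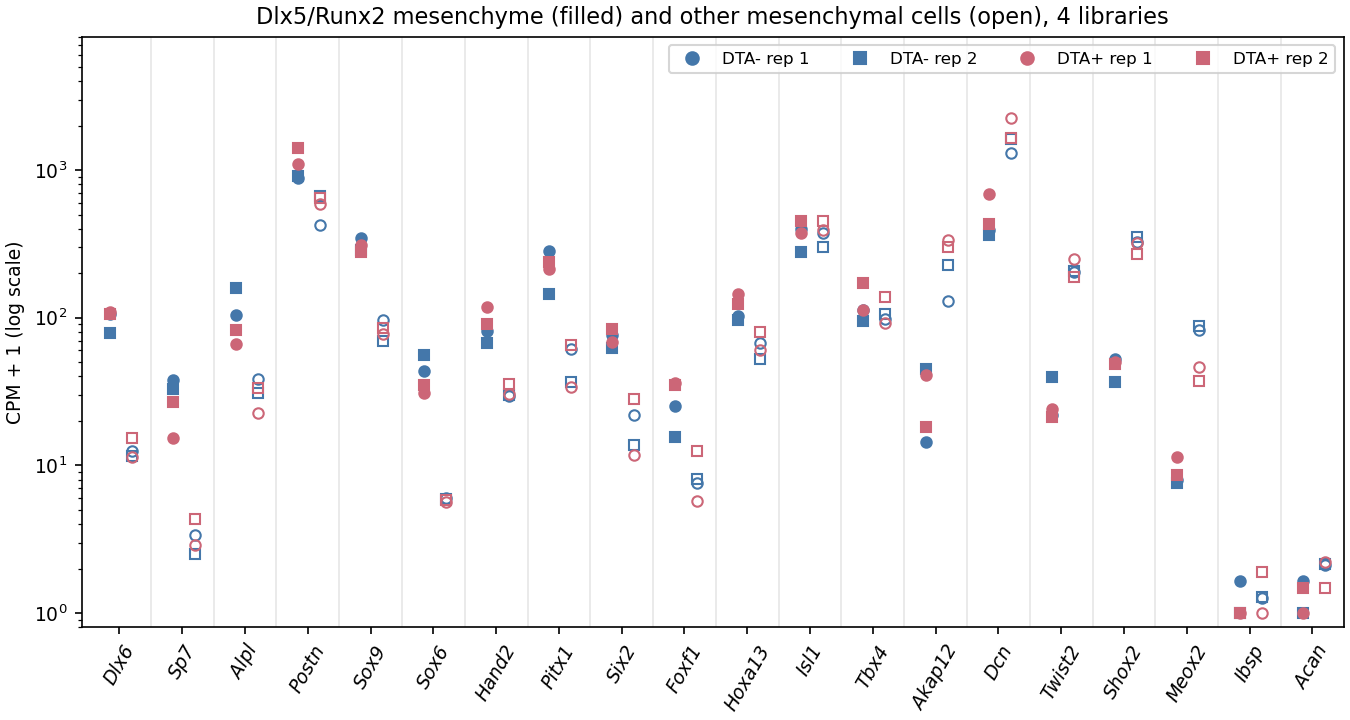
Level of 20 genes as CPM + 1 on a log axis, with 1 point per library, filled for Dlx5/Runx2 mesenchyme and open for other mesenchymal cells, blue for DTA- and red for DTA+. Sp7, Alpl, Sox9 and Pitx1 sat above the other mesenchymal cells in all 4 libraries, Dcn, Akap12 and Shox2 sat below them, and Ibsp and Acan lay near 0.

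The transcription factors of the cartilage lineage were also higher in these cells, while some matrix genes were near 0. The level of Col2a1 and Col9a1 came mainly, and that of Sox5 in large part, from a small subset of the cells. Sox9, the master regulator of chondrocytes, was at 343, 286, 309 and 279 CPM, against 68.3 to 96.0 in other mesenchymal cells. Its partner Sox6 was at 42.7, 54.5, 29.7 and 34.1 CPM against 4.65 to 4.98, and Sox5 was 3.28 times higher in the mean. The groups did not overlap for Sox9 or Sox6. Col2a1, the main cartilage collagen, was 1.99 times higher, at 44.6, 57.1, 43.9 and 29.9 CPM, and higher in all 4 libraries. Col9a1 (2.19 times), Col9a2 (2.33 times) and Col11a1 (2.08 times), collagens of the same fibrils, and Hapln1 (2.42 times), which links hyaluronan to proteoglycan, were also higher in all 4 libraries. Of the 210 Col2a1 UMIs of Dlx5/Runx2 mesenchyme 136, and of the 205 of Col9a1 146, came from 111 cells of a Sox9 cluster described below. In the 793 cells of the largest cluster the means were 11.3 CPM for Col2a1 and 12.9 CPM for Col9a1, against 22.0 and 22.4 CPM in other mesenchymal cells. Sox5 had 159 of its 298 UMIs in the same 111 cells. Its mean was 39.0 CPM in the largest cluster and 7.45 CPM in 143 cells of a Hand2 cluster described below, against 19.0 CPM in other mesenchymal cells. The other cartilage collagens were not split by cluster. Of 8 cartilage genes at 10 CPM or more, 3 were at least 2-fold higher in all libraries, Sox9, Sox5 and Sox6, with a median log2 ratio of 0.98 against 0.03 for all genes. Acan, which encodes aggrecan, reached at most 0.637 CPM, Col10a1, of hypertrophic cartilage, at most 0.474 CPM, and Matn1 was at 0.

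No position was recorded for a dissociated cell, so the site of Dlx5/Runx2 mesenchyme is described by genes of known domains. Hoxa13 and Hoxd13, which mark the distal limb and the genital tubercle, were at 101, 95.7, 145 and 124 CPM and at 121, 133, 165 and 167 CPM, 1.82 and 1.71 times the level of other mesenchymal cells. Of 23 position genes of the genital tubercle and hindlimb at 10 CPM, 2 were at least 2-fold higher in all libraries, Hand2 and Six2, and 1 was at least 2-fold lower, Meox2, a homeobox gene of limb and somite mesenchyme, at 0.126 times the level of other mesenchymal cells, with a median log2 ratio of 0.20. Tbx18 (0.692 times) and Hoxc11 (0.788 times) were also lower in all 4 libraries. Of 15 homeobox genes of the Dlx, Msx and Alx list that reached 10 CPM, 6 were at least 2-fold higher in all libraries, among them Dlx2, Dlx3, Barx1 and Pitx1, and with Dlx6, which overlaps Dlx6os1, left aside the count was 5. Pitx1, a hindlimb and jaw factor, was at 281, 144, 212 and 239 CPM, against 32.8 to 64.9. Shox2 alone of the list was at least 2-fold lower in all, at 35.9 to 51.6 CPM against 270.6 to 350.5. Hand2, a factor of the jaw arch, limb and genital mesenchyme, was at 80.8, 66.4, 118 and 89.6 CPM against 28.7 to 34.8. Foxf1, a target of hedgehog signals from epithelium such as the urethra, was at 24.2, 14.6, 34.9 and 34.1 CPM against 4.72 to 11.5. It was the only one of 8 hedgehog-responsive and periurethral genes at 10 CPM to be at least 2-fold higher in all libraries, and the list's median log2 ratio was -0.22. Ptch1 and Gli1, direct targets of the pathway, were at 0.741 and 0.452 times the level of other mesenchymal cells, Hhip, a hedgehog-binding inhibitor, at 0.364 times and Foxf2 at 0.695 times, each lower in all 4 libraries. Of 7 distal glans genes, 0 were 2-fold higher or lower in all libraries, with a median of -0.40.

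Genes of the prepuce and dermis were lower. Of 11 such genes at 10 CPM or more, 8 were at least 2-fold lower in all 4 libraries, among them Dcn, a small collagen-binding proteoglycan, Dpt, Akap12, Col14a1 and Kera, and the list's median log2 ratio was -1.67 against 0.03 for all genes. Col14a1, a fibril-associated collagen, was at 34.4, 61.1, 67.2 and 51.2 CPM against 317 to 513. Isl1, Tbx4 and Tbx5, factors of the limb and genital fields, were close to the level of other mesenchymal cells, with Isl1 at 0.984, Tbx4 at 1.14 and Tbx5 at 0.845 times their level. Of 20 cell cycle genes, 6 were at least 2-fold lower in all libraries, Mki67, Top2a, Cdk1, Ccnb2, Aurkb and Rrm2, and 0 were 2-fold higher. Over all genes at 10 CPM these shares were 2.69% and 1.69%. The list's median log2 ratio was -0.93 against 0.03 for all genes.

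Ranked by the ratio of mean CPM after adding 10 CPM to both, which holds back genes of low level, the leading genes outside the rule were Hs3st3b1, a heparan sulfate sulfotransferase, Ostn, a secreted peptide of bone and muscle (osteocrin), Pcp4, a small calmodulin-binding protein, Gm43376 and Scube1, with Dlx6 left aside because of its overlap with Dlx6os1. Hs3st3b1 was at 122, 69.1, 187 and 186 CPM, 8.14 times the mean of other mesenchymal cells with nothing added. By that plain ratio several genes of lower level stood above it, such as Ostn (30.5 times), Barx1 (15.2 times), Pcp4 (13.1 times), Dlx3 (12.4 times) and Sp7 (12.0 times). Ostn and Pcp4 led through the DTA- libraries: their mean levels were 89.7 and 112 CPM in DTA- and 10.0 and 10.7 CPM in DTA+. Ostn was detected in 9.33%, 19.4%, 3.83% and 1.79% of the cells and Pcp4 in 14.7%, 25.6%, 3.28% and 2.99%, so most cells showed neither. Prss35 (5.09 times), the homeobox gene Zfhx3 (4.35 times), Sp9, a zinc finger factor of limb outgrowth, Dio2, which activates thyroid hormone, and Nrxn3 followed. All of these genes were counted on the cells that the rule chose, so the ratios describe the selection and carry no test.

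Markers of other cell types were detected at levels that differed by type. At least 2 of 5 general mesenchyme genes were found in 1130 of the 1145 cells (98.7%), and 63 cells (5.50%) held a UMI of a defining marker of another type. The 12 epithelial genes, led by Krt10 in 3 of the libraries and with Epcam at 0 by the rule, summed to 118, 106, 82.7 and 85.8 CPM, against 110, 74.9, 89.4 and 75.3 CPM in other mesenchymal cells. The 12 genes of pericytes and smooth muscle, led by Pdgfrb, summed to 249.5, 272, 314 and 254 CPM and were lower than in other mesenchymal cells in all 4 libraries. The 8 endothelial genes summed to 15.9, 29.2, 62.0 and 19.9 CPM, highest in DTA+ replicate 1, where other mesenchymal cells had 23.2 CPM. Glial genes summed to at most 21.3 CPM, neuronal genes to 48.4, 22.6, 69.8 and 27.5 CPM and genes of skeletal muscle to at most 12.1 CPM. The summed level of 10 macrophage genes was 4.46, 19.9, 18.1 and 23.2 CPM. The 8 mast cell genes summed to 14.0, 210, 18.1 and 11.4 CPM. In DTA- replicate 2 Cma1 alone was at 126 CPM, and 91 of its 95 UMIs were in 1 cell. The rest of that sum came from other mast cell genes. Erythroid genes summed to 2671, 2190, 2035 and 1271 CPM, led by Hbb-bs, and were higher in both DTA- libraries than in both DTA+ libraries.

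Joint clustering of all kept cells into 33 clusters, done without the rule, placed 793 of the 1145 cells (69.3%) in 1 cluster of 1650 cells, of which they were 48.1%. Its leading genes were Cpm, Hs3st3b1, D030025E07Rik, Dlx6os1, Dlx5 and Lrfn5. A further 143 cells (12.5%) were in a cluster led by Hand2os1, Prss35 and Hand2, and 111 (9.69%) in a cluster led by Sox9, Ecrg4, Col9a1 and Col9a3, while no other cluster held more than 20. The clusters were built from the same counts, so values between them are descriptions of this heterogeneity. Sp7 was at a mean of 36.3 CPM in the cells of the main cluster, 6.97 in the Hand2 cluster and 5.74 in the Sox9 cluster. Sox9 was at 268, 81.0 and 811 CPM in the same order, Col2a1 at 11.3, 13.5 and 203 CPM, and Hand2 at 72.1, 203 and 45.2 CPM. Pitx1 was at 286, 46.4 and 141 CPM and Six2, a factor of skeletal progenitors, at 97.7, 29.1 and 10.7 CPM. Sp7, Pitx1 and Six2 were thus highest in the main cluster, and the cartilage genes in the smallest of the 3. The main cluster held 75.3%, 61.3%, 60.7% and 71.3% of the cells of the 4 libraries, with no order by genotype. The Hand2 cluster held 5.33%, 11.9%, 17.5% and 15.1%, more in both DTA+ libraries than in both DTA- libraries. For the Sox9 cluster, at 9.33%, 12.5%, 16.4% and 6.57%, the genotypes overlapped. How far this mix entered the differences between genotypes given below was not tested.

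**Figure D2:**
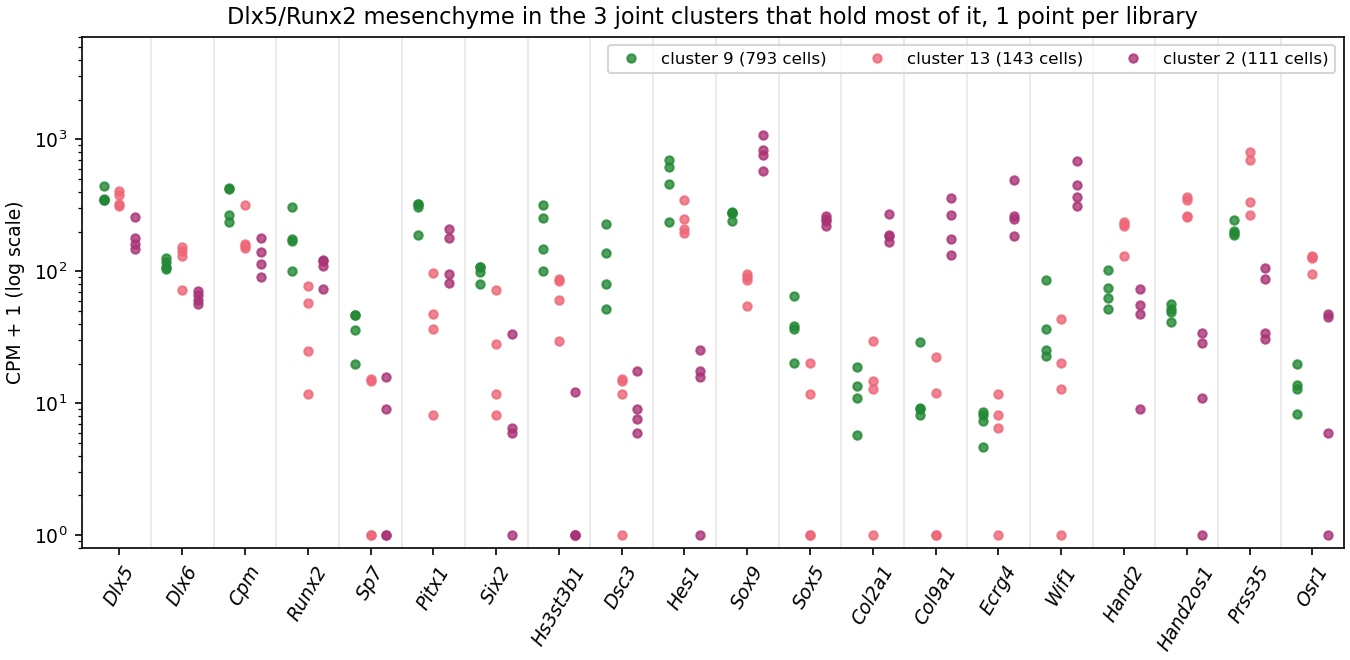
Level of 20 genes, as CPM + 1 on a log axis with 1 point per library, in Dlx5/Runx2 mesenchyme of the 3 joint clusters that held most of it (793, 143 and 111 cells). Sp7 and Pitx1 were highest in the main cluster, Hand2 in the Hand2 cluster, and Sox9 and Col2a1 in the Sox9 cluster.

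The first question between genotypes was whether ablation changed how many cells were Dlx5/Runx2 mesenchyme. The share of kept cells was 3.95% (95% exact binomial interval 3.52% to 4.41%), 1.90% (1.62% to 2.21%), 2.20% (1.90% to 2.54%) and 5.36% (4.91% to 5.83%), intervals that cover counting error only. DTA+ replicate 2 was highest and DTA- replicate 2 lowest, and the lower DTA+ library lay between the DTA- libraries, so the genotypes overlapped. The means were 2.92% ± 1.45 in DTA- and 3.78% ± 2.23 in DTA+ (SD, n = 2 libraries each). A two-sided exact permutation test gave p = 0.667, where 2 against 2 allows no p below 0.333. Detection of the rule's genes rises with depth, so each cell was also thinned to 2000 UMIs, leaving out 339, 483, 743 and 538 shallower cells, which gave shares of 1.34%, 0.704%, 0.886% and 2.23% and the same exact permutation p of 0.667. Replicates of a genotype differed more than the genotypes did. The log2 ratio of the mean shares, 0.37, was -0.06 without DTA- replicate 2 and -0.41 without DTA+ replicate 2. A lower share of cells and fewer detected UMIs of the rule's genes per cell cannot be told apart by this rule.

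**Figure D3:**
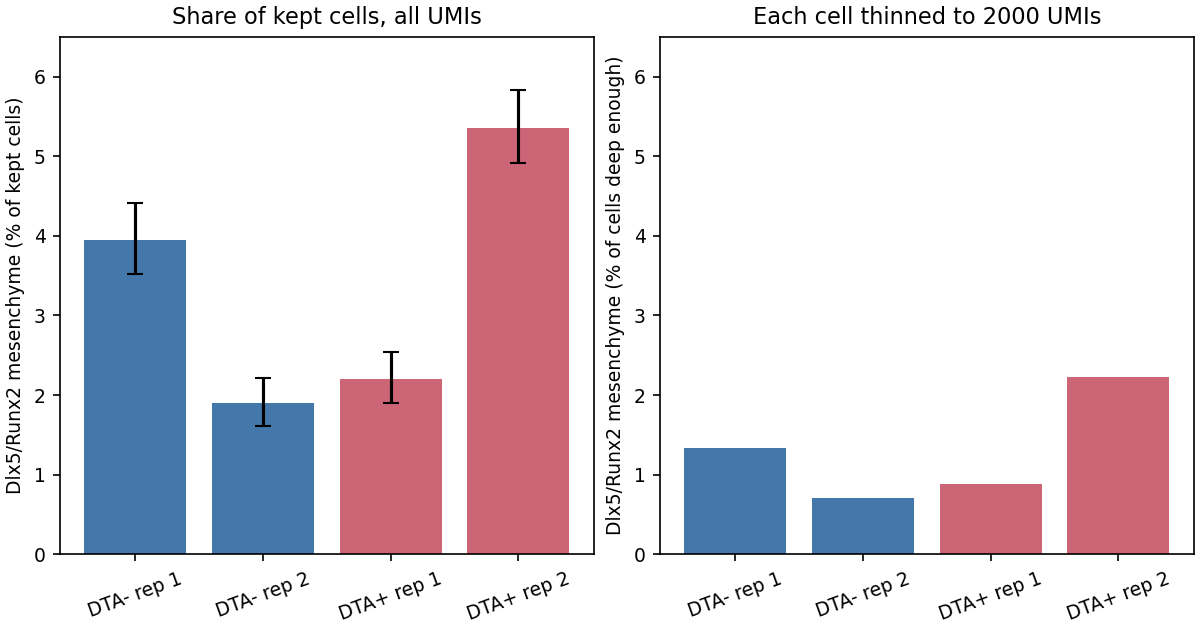
Share of cells that were Dlx5/Runx2 mesenchyme, in percent, 1 bar per library, blue for DTA- and red for DTA+, from all UMIs with exact 95% binomial intervals (left) and after thinning each cell to 2000 UMIs (right). The DTA- libraries stood at 3.95% and 1.90% and the DTA+ libraries at 2.20% and 5.36%, so the genotypes overlapped.

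Expression between genotypes was compared on UMIs summed over the cells of each library, with edgeR's quasi-likelihood test and Benjamini-Hochberg adjustment over all 9417 genes tested. At an adjusted p under 0.05, 246 genes differed (2.61%), 131 of them higher (1.39%) and 115 lower (1.22%) in DTA+. The median log2 fold change of all genes was -0.0022. In other mesenchymal cells of the same libraries, 225 of 15674 genes (1.44%) differed, 112 higher (0.715%) and 113 lower (0.721%), with more UMIs behind each value.

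The reporter checked the genotype. tdTomato had 0, 0, 48 and 131 UMIs in Dlx5/Runx2 mesenchyme, or 62.0 and 62.1 CPM in the DTA+ libraries, at least 48.1-fold higher than a floor of 3 counts over the DTA- libraries. It was detected in 21.3% and 21.1% of the DTA+ cells, and at 88.3 and 69.8 CPM in other mesenchymal cells of DTA+. The study's methods describe leaky transcription of the reporter, so these UMIs cannot by themselves be read as Cre activity. Nr5a1 itself had 1, 1, 2 and 2 UMIs in all deposited cells of the libraries. Gt(ROSA)26Sor, the transcript of the locus that carries both alleles, was at 10.8, 17.3, 76.2 and 109 CPM, a log2 fold change of 2.85 ± 0.29 (SE, adjusted p 6.8e-05), and both DTA+ libraries lay above both DTA- libraries.

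Among genes past the test that averaged at least 20 CPM and did not overlap between genotypes, Ostn and Pcp4 showed the largest falls. Both stood high in these cells relative to other mesenchymal cells. Ostn was at 43.9 and 136 CPM in DTA- and at 12.9 and 7.11 CPM in DTA+. Both DTA- libraries lay above both DTA+ libraries, and the log2 fold change was -3.22 ± 0.48 (SE, adjusted p 0.0018). Leaving out each library in turn moved it between -3.95 and -2.34. Pcp4 was at 84.7 and 140 CPM in DTA- and at 7.75 and 13.7 CPM in DTA+, with no overlap and a log2 fold change of -3.18 ± 0.31 (SE, adjusted p 5.1e-05). Each fell under every alternative in which it was tested. By cluster, Pcp4 was at 118, 186, 2.36 and 9.59 CPM in the main cluster and Ostn at 54.8, 145, 16.5 and 9.59 CPM. In the Hand2 cluster Pcp4 was at 32.1, 23.8, 28.5 and 16.4 CPM, where the genotypes overlapped, and Ostn was at 0. In the Sox9 cluster Pcp4 was at 0, 218, 0 and 0 CPM and Ostn at 9.91, 218, 19.9 and 11.1 CPM. Ostn lies at chr16:27307489-27351212 and Pcp4 at chr16:96467606-96525793. In the cells with exactly 2 of the rule's genes, Pcp4 was at 15, 38.3, 12.5 and 14.9 CPM and Ostn at 12.5, 24.2, 15.6 and 3.62 CPM, so DTA- replicate 1 no longer lay above DTA+ replicate 1 for Ostn. Fkbp5, a chaperone induced by glucocorticoids, was at 56.0 and 53.2 CPM in DTA- and 10.3 and 11.8 CPM in DTA+, with a log2 fold change of -2.28 ± 0.28 (SE, adjusted p 0.00048). Tpd52l1, a vesicle trafficking protein, was at 93.6, 91.7, 24.5 and 28.9 CPM (log2 fold change -1.77 ± 0.21, adjusted p 0.000455). Phgdh, the first enzyme of serine synthesis, was at 96.8, 90.4, 23.3 and 31.8 CPM (log2 fold change -1.72 ± 0.22, adjusted p 0.00058). Ctnnd2, a catenin of neural junctions, also fell, at 24.2, 42.5, 2.58 and 11.8 CPM (log2 fold change -1.81, adjusted p 0.035), and without DTA+ replicate 2 its log2 fold change was -3.59. Falls were also found for Ptgis, prostacyclin synthase, Tmem97, Epha3, an ephrin receptor, and Ly6e, with log2 fold changes from -2.10 to -1.56. The last 4 were lost without DTA+ replicate 2, with adjusted p of 0.053 for Ptgis and 0.14 for each of the other 3.

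Genes that rose were named by the same limits, a lack of overlap among them. Nr4a2, an orphan nuclear receptor that responds quickly to stimuli, was at 24.2 and 42.5 CPM in DTA- and 105 and 128 CPM in DTA+. The genotypes did not overlap and the log2 fold change was 1.92 ± 0.24 (SE, adjusted p 0.00056). Selenop, which carries selenium out of cells, was at 28.0, 34.5, 101 and 89.6 CPM (log2 fold change 1.60 ± 0.22, adjusted p 0.00088). Gabrb1, a GABA receptor subunit, was at 11.5, 6.64, 37.5 and 36.5 CPM (log2 fold change 1.88 ± 0.33, adjusted p 0.0061). Heca and Stxbp6, a binder of SNARE proteins, rose by 1.71 and 1.61 on the log2 scale. Zdbf2, an imprinted gene, was lost without DTA+ replicate 2 (adjusted p 0.19) and Cxxc5, a repressor of Wnt signalling, without DTA+ replicate 1 (adjusted p 0.19). Gm26802 was lost without DTA- replicate 1 (adjusted p 0.091) and without DTA+ replicate 2 (adjusted p 0.056).

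**Figure D4:**
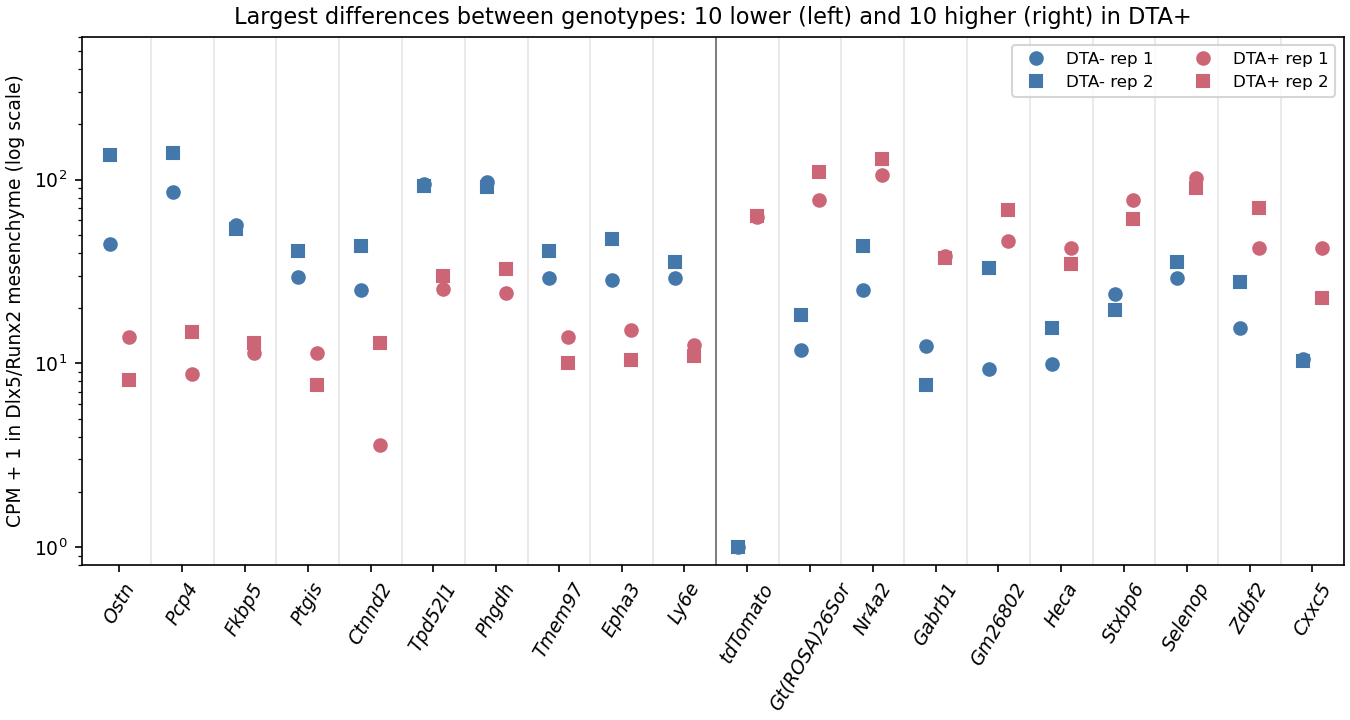
Levels in Dlx5/Runx2 mesenchyme of 20 genes that differed between genotypes, as CPM + 1 on a log axis with 1 point per library, blue for DTA- and red for DTA+. For Ostn, Pcp4, Fkbp5, Tpd52l1 and Phgdh both DTA- libraries sat above both DTA+ libraries, and for Gt(ROSA)26Sor and Nr4a2 below them.

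Of 16 osteogenic genes tested, with the rule's genes and Dlx6 left aside, 0 rose and 2 fell, Col1a1 and Col1a2, where 1.22% of all genes tested fell, and the list's median log2 fold change was -0.00038. Col1a2 was at 1665, 2291, 1271 and 1288 CPM, with no overlap and a log2 fold change of -0.65 ± 0.13 (SE, adjusted p 0.015), which was -0.41 without DTA- replicate 2. Col1a1 fell by 0.58 on the log2 scale (adjusted p 0.039) but was lost without DTA- replicate 2 (adjusted p 0.19), without DTA+ replicate 1 (0.071) and without DTA+ replicate 2 (0.065). Alpl, at 103, 158, 65.9 and 82.0 CPM, had a log2 fold change of -0.75 ± 0.21 (SE) and did not pass (adjusted p 0.067). Sp7 had -0.68 ± 0.30 (adjusted p 0.24). Both were lower in both DTA+ libraries than in both DTA- libraries. Genotypes that did not overlap, in either direction, were found for 46.9% of all genes tested. None of 9 cartilage genes (median -0.25) and none of 14 Dlx, Msx and Alx genes (median 0.47, likewise without the rule's genes and Dlx6) passed.

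Genes of BMP and Wnt signalling that passed were higher in DTA+. Of 30 genes of BMP signalling tested, with the rule's Bmp5 left aside, 3 rose and 0 fell, where 1.39% of all genes rose and 1.22% fell, with a median log2 fold change of 0.37 (0.14 in other mesenchymal cells, over 38 genes with Bmp5 among them). Id1, a direct target that holds back differentiation, was at 928, 904, 1221 and 2016 CPM (log2 fold change 0.81 ± 0.17, adjusted p 0.020). Id3 rose by 0.65 and Smad7, an inhibitor of the receptors, by 0.71 on the log2 scale. All 3 rested on DTA+ replicate 2: without it the adjusted p was 0.41 for Id1, 0.57 for Id3 and 0.62 for Smad7. Of 31 Wnt genes, 4 rose and 0 fell, against the same shares of all genes, with a median of 0.36. In other mesenchymal cells of the same libraries 4 of 43 also rose, Dkk2, Sfrp1, Sfrp4 and Rspo2, with a median of 0.18. Wnt5a, a ligand of outgrowth in the genital tubercle, was at 833, 678, 1255 and 1370 CPM (log2 fold change 0.77 ± 0.13, adjusted p 0.0049). Dkk2, a Wnt antagonist, was at 112, 118, 242 and 253 CPM (log2 fold change 1.09 ± 0.16, adjusted p 0.0011). Neither overlapped between genotypes. Dkk3 and Nkd2 also passed, Dkk3 not without DTA- replicate 1 (adjusted p 0.081), DTA+ replicate 1 (0.14) or DTA+ replicate 2 (0.19), and Nkd2 not without DTA+ replicate 1 (0.34). FGF signalling had 0 of 16 genes past the test with a median of 0.65.

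Genes of position gave few calls. Of 22 genes of the genital tubercle and hindlimb, 1 rose, Eya1, a transcriptional coactivator, and 21 had a positive log2 fold change, with a median of 0.38 (0.10 in other mesenchymal cells), where 1.39% of all genes rose and their median was -0.0022. Eya1 was at 58.6, 63.8, 116 and 98.1 CPM (log2 fold change 0.77 ± 0.19, adjusted p 0.038) and was lost without DTA- replicate 1 (adjusted p 0.087), DTA+ replicate 1 (0.19) or DTA+ replicate 2 (0.070). Hoxa13 and Hoxd13 had log2 fold changes of 0.39 and 0.38, with adjusted p of 0.23 each. Of 6 genes of the distal glans, Tac1, which encodes substance P, and Wnt5a rose (1.39% of all genes), with a median of 0.71, against 0.45 for 8 genes in other mesenchymal cells. Tac1 was at 67.5, 25.2, 101 and 163 CPM (log2 fold change 1.40 ± 0.29, adjusted p 0.017), had a log2 fold change of 2.44 without DTA- replicate 1, and did not pass without DTA+ replicate 2 (adjusted p 0.064). Lum, of 9 prepuce and dermal genes, rose by 0.98 on the log2 scale (adjusted p 0.0061), from 162 and 145 CPM to 366 and 264 CPM. Of 6 genes of the dermal condensate, Prdm1, a transcriptional repressor, rose by 0.98, but not without DTA+ replicate 2 (adjusted p 0.16). Of 7 hedgehog-responsive and periurethral genes, 0 passed (median 0.30).

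Genes induced by glucocorticoids were fixed as a list because the adrenal gland is a site of Nr5a1-Cre. Of 16 tested, Fkbp5 and Mt1 fell and Dusp1 rose, where 1.22% of all genes fell and 1.39% rose, with a median of -0.10 (-0.44 in other mesenchymal cells). Mt1, a metallothionein that also responds to metals, was at 12.1 and 26.6 CPM in DTA- and 1.29 and 3.32 CPM in DTA+ (log2 fold change -2.65 ± 0.58, adjusted p 0.023), with few UMIs. It did not pass without DTA- replicate 2, and leaving out each library in turn moved its log2 fold change between -3.70 and -2.14. Tsc22d3, also known as Gilz, was at 122, 99.7, 51.7 and 80.6 CPM (log2 fold change -0.71 ± 0.21, adjusted p 0.078, and 0.019 without DTA+ replicate 2), and Klf9 at 57.9, 71.8, 33.6 and 37.0 CPM (log2 fold change -0.85 ± 0.22, adjusted p 0.056). With all libraries neither passed. Neither gene overlapped between genotypes, which held for 46.9% of all genes tested. Dusp1, a phosphatase also induced by stress, rose by 0.82 on the log2 scale and did not pass without DTA+ replicate 2 (adjusted p 0.098). The promoter of Mt1 (GRCm38.p6, chr8:94178839-94179088, plus strand) is shown because it holds ACANNNTGT, the letters of the glucocorticoid receptor element and the same on both strands, from 92 bases before the RefSeq start. This pattern is present in 5.84% of promoters, and capitals mark it. The promoter of Fkbp5 (chr17:28486150-28486399, minus strand) had 0 matches to it.
Mt1: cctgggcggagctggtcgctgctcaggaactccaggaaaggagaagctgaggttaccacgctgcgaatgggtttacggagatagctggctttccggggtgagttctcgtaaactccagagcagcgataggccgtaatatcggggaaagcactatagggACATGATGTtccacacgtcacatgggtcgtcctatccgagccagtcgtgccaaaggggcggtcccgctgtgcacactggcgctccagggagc

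Of 5 tested genes for steroid receptors and steroid-converting enzymes, 0 passed. Esr1, the estrogen receptor, was at 45.2, 34.5, 77.5 and 68.7 CPM (log2 fold change 0.78 ± 0.22, adjusted p 0.065).

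Of 17 cell cycle genes, 2 fell, Top2a and Ube2c, where 1.22% of all genes fell, and all 17 had a negative log2 fold change, with a median of -0.89 against -0.0022 for all genes. In other mesenchymal cells the median of 20 genes was -0.50. Ube2c was at 54.1, 83.7, 23.3 and 28.9 CPM (log2 fold change -1.31 ± 0.26, adjusted p 0.013). Top2a fell by 1.03, but not without DTA- replicate 2 (adjusted p 0.051) or DTA+ replicate 1 (0.089). Of 16 genes of hypoxia and glycolysis, Higd1a and Eno1 fell (1.22% of all genes), with a median of -0.29 (-0.30 in other mesenchymal cells). Higd1a, a mitochondrial protein induced by low oxygen, was at 210, 272, 128 and 122 CPM (log2 fold change -0.96 ± 0.17, adjusted p 0.0060). Eno1, a glycolytic enzyme, did not pass without DTA- replicate 1 (adjusted p 0.082) or DTA+ replicate 2 (0.14). Of 24 genes known to respond to dissociation, Nr4a2, Nr4a1, Junb and Ier3 rose, where 1.39% of all genes rose, with a median of 0.14. Of these 4, Nr4a2 alone passed without each library in turn. Of 4 erythroid genes tested, 2 fell, Hba-a2 and Hbb-bt (median -0.87), where 1.22% of all genes fell. Hba-a2 was at 269, 229, 152 and 122 CPM, and neither gene passed without DTA+ replicate 2 (adjusted p 0.11 for Hba-a2 and 0.0998 for Hbb-bt). Of the lists for other cell types, epithelium, endothelium, neuron and pericyte and smooth muscle had 2, 1, 2 and 4 genes tested, of which 0 passed, and no gene of macrophages, mast cells, glia or skeletal muscle had enough UMIs to be tested. Whether the response to dissociation and blood RNA had a part in the other differences was not tested.

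Whether an effect of genotype differed from that in other mesenchymal cells was tested as an interaction, with library as a block. Of 15192 genes, 111 passed (0.731%), 58 with a more positive (0.382%) and 53 with a more negative effect (0.349%) in Dlx5/Runx2 mesenchyme, and 40 of its 246 genes were among them. For the rest of the 246 no difference from the effect in other mesenchymal cells was shown. Pcp4 gave an interaction of -3.57 on the log2 scale (adjusted p 1.7e-21): in other mesenchymal cells it was at 3.50, 5.12, 3.37 and 6.76 CPM, with a log2 fold change of 0.16. These values pool many clusters. Pcp4 was also among the leading genes of a joint cluster of 1014 cells led by Dsc3, Ephb1 and Rprm, of which 20 were Dlx5/Runx2 mesenchyme. Its level by genotype in that cluster was not examined. Ostn gave -2.51 (adjusted p 9.3e-05), with at most 2.21 CPM in other mesenchymal cells, and did not pass without DTA- replicate 2 (adjusted p 0.23). Ctnnd2 gave -2.48 (-4.67 without DTA+ replicate 2), with a log2 fold change of 0.71 in other mesenchymal cells. Ptn, pleiotrophin, a heparin-binding growth factor of bone and nerve, was at 2977, 2789, 3637 and 3899 CPM in Dlx5/Runx2 mesenchyme and at 1666, 2073, 1041 and 976 CPM in other mesenchymal cells, so the directions were opposite and the interaction was 1.29 (adjusted p 5.7e-27). The difference of Ptn in Dlx5/Runx2 mesenchyme did not itself pass (log2 fold change 0.36, adjusted p 0.057), while the fall in other mesenchymal cells did (log2 fold change -0.96, adjusted p 0.017). Esr1 gave -1.67 (adjusted p 1.6e-06): it was at 3.93, 3.34, 20.9 and 21.3 CPM in other mesenchymal cells, where it rose (log2 fold change 2.46, adjusted p 0.0013), from a level lower than in Dlx5/Runx2 mesenchyme in all 4 libraries. The glucocorticoid-induced Fkbp5, at 77.9, 79.7, 13.4 and 13.7 CPM in other mesenchymal cells, gave an interaction of 0.30 ± 0.31 (SE), which did not pass (adjusted p 0.985). Among the genes described above, Selenop gave 1.04 (adjusted p 0.00055), Nkd2 0.91 (adjusted p 0.0011) and Col1a2 -0.57 (adjusted p 0.00022).

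**Figure D5:**
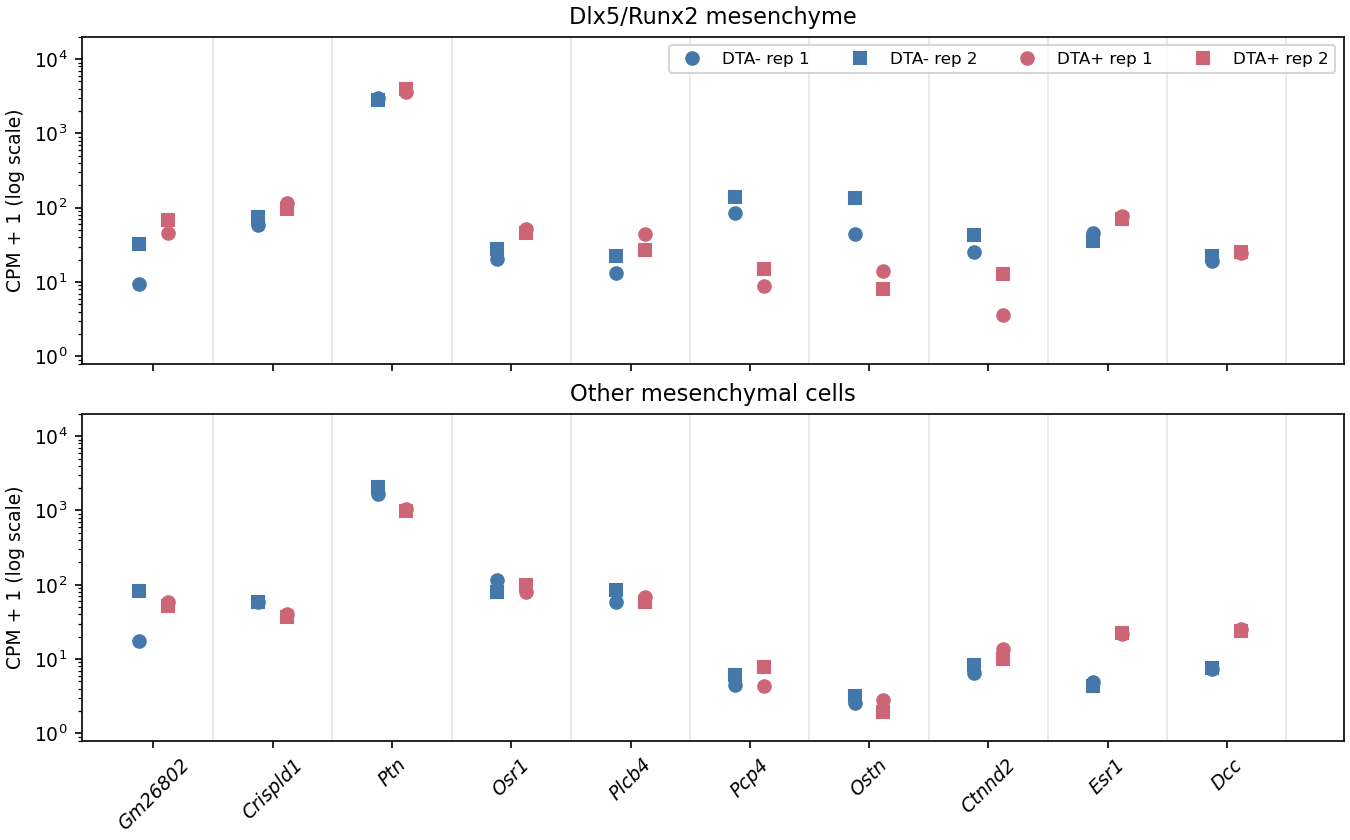
Levels of the 10 genes with the largest differences in the effect of genotype, as CPM + 1 on a log axis with 1 point per library, in Dlx5/Runx2 mesenchyme (top) and other mesenchymal cells (bottom), blue for DTA- and red for DTA+. Pcp4 and Ostn sat apart by genotype in Dlx5/Runx2 mesenchyme and low in all 4 libraries in other mesenchymal cells, and Ptn was higher in DTA+ in the first and lower in the second.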

How the data were processed

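Per the labels and the study's methods, the authors dissociated penises at E16.5, prepared 10x libraries, pooled them on 1 flow cell and counted UMIs with Cell Ranger against mm10 with reporter sequences added. The submitters' notes give Cell Ranger 4.0.0 and the study's methods an earlier major version. The deposited values were counts of UMIs for 32287 features per cell barcode, not normalized; whether strand was used is not given in the sources used here.

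Cells with 1000 to 10000 UMIs, at most 25% mitochondrial and at most 25% hemoglobin UMIs were kept. Dlx5/Runx2 mesenchyme needed at least 3 of the 7 genes and no Epcam UMI. Other mesenchymal cells were Epcam-negative kept cells with at least 2 of 5 mesenchyme genes, outside the rule and without exclusion genes. The cells and gene lists were chosen with earlier results of these data known. Doublets were scored with Scrublet, which made 0 automatic calls and was therefore used only as an alternative. Kept cells were clustered with scanpy 1.11.5 (2000 variable genes, 30 principal components, 15 neighbours, Leiden resolution 1).

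UMIs were summed per library and tested with edgeR 4.0.16 (glmQLFit and glmQLFTest, TMM, filterByExpr, genotype as the term) in R 4.3.3, with Benjamini-Hochberg adjustment over all genes tested and a threshold of 0.05. The interaction was fitted on both sums of each library with library as a block. In the fit of Dlx5/Runx2 mesenchyme, the spread shared over genes weighed a median of 14.6 degrees of freedom, against 2 from a gene's own libraries. The p-values of the interaction likewise rest on a spread shared over genes. An SE is the log2 fold change divided by the square root of the test statistic. CPM are counts per 1000000 UMIs of the summed cells. With 2 libraries per genotype, leaving out 1 leaves a lone sample assumed to vary like the others. Named genes were the rule's markers, members of the 27 other lists, and the 10 largest rises and falls (5 each way for the interaction) among genes past the threshold whose genotypes did not overlap and whose mean reached 20 CPM. On simulated counts the test recovered 52.5% of genes changed 2-fold and 92.5% changed 4-fold in Dlx5/Runx2 mesenchyme, and 9.5% and 63.5% for the interaction. Promoters came from RefSeq (GRCm38.p6), where 9 of 13 genes looked up were found. Library totals were 73577028, 53654435, 50794318 and 50779551 UMIs in 12580, 11607, 11510 and 11343 cells.

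Alternatives were the likelihood ratio test, DESeq2 1.42.0, no filter, DESeq2 size factors, a replicate block, leaving out each library, 2 or 4 markers, the study's cell limits (1000 to 7500 UMIs, Hbb up to 50%), leaving out cells with other markers or high doublet scores, the whole main cluster, and thinning to 1000 UMIs. Restricting the cells to the main cluster and a crossed block were chosen after seeing the data.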

Additional observations from a re-analysis of the deposited data

Results flagged for a closer look

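The effect of genotype differed between Dlx5/Runx2 mesenchyme and other mesenchymal cells of the same libraries, by the edgeR interaction test, for these 10 genes of at least 20 CPM. More positive in Dlx5/Runx2 mesenchyme, on the log2 scale, were Gm26802 (1.44), Crispld1, a secreted protein of the CAP family (1.34), Ptn (1.29), Osr1, a zinc finger factor of mesenchyme (1.26), and Plcb4, a phospholipase (1.19). Osr1 was at 19.1, 26.6, 50.4 and 44.1 CPM in Dlx5/Runx2 mesenchyme and at 116, 78.7, 80.2 and 98.9 CPM in other mesenchymal cells. By cluster, the genotypes overlapped for Osr1 in the main cluster (7.30, 12.7, 18.9 and 11.8 CPM) and in the Hand2 cluster (129, 95.1, 128 and 125 CPM). They did not in the Sox9 cluster (4.95, 0, 46.5 and 44.3 CPM). With the cells of the main cluster alone, the interactions of Osr1, Plcb4 and Dcc did not pass. More negative were Pcp4 (-3.57), Ostn (-2.51), Ctnnd2 (-2.48), Esr1 (-1.67) and Dcc, a netrin receptor (-1.53). Dcc was at 18.5, 21.3, 23.3 and 24.2 CPM in Dlx5/Runx2 mesenchyme and at 6.44, 6.57, 24.7 and 22.7 CPM in other mesenchymal cells, so the levels were alike in DTA+ and apart in DTA-. Of the 10, 5 passed without each library in turn (Crispld1, Ptn, Pcp4, Ctnnd2 and Esr1), and Pcp4 and Ptn under every alternative run. Without DTA- replicate 1, Osr1 (adjusted p 0.78), Plcb4 (0.23) and Dcc (0.12) did not pass; without DTA- replicate 2, Gm26802 (0.32), Plcb4 (0.0787), Ostn (0.23) and Dcc (0.081) did not. Without DTA+ replicate 1, Plcb4 (0.17) and Dcc (0.050) did not pass, nor did Gm26802 (0.66) without DTA+ replicate 2.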

How the results depend on the processing

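Calls depended on the setting more than directions did: of the 246 genes, all those tested kept their sign under each alternative except 1 gene, Hba-a2, at 4 or more markers (log2 fold change 0.12). In Dlx5/Runx2 mesenchyme the number of genes past the threshold was 500 with the likelihood ratio test, 79 with DESeq2, 484 without the filter on low counts, 415 with the replicate block, 135 to 544 leaving out each library in turn, 483 and 23 with at least 2 and 4 markers, 127 with the study's cell limits, 134 without cells holding other markers, 63 after thinning and 160 in the main cluster. In other mesenchymal cells it was 870 (likelihood ratio), 648 (DESeq2), 399 (no filter), 776 (replicate block), 312 to 735 (leaving out each library) and 1582 (crossed numbers as block, chosen after seeing the data), against 225. For the interaction, with 111, it was 51 to 106 leaving out each library, 39 with at least 4 markers and 6 after thinning. Causes were not tested, beyond the fewer UMIs that the stricter rule and thinning leave. The correlation of deviations of same-numbered libraries was -0.027 in Dlx5/Runx2 mesenchyme and -0.32 in other mesenchymal cells. With 2 libraries per genotype, these values cannot show whether libraries of the same number shared a batch or litter. The labels do not say what the numbers stand for. No pairing was used, and the interaction has each library as its block. The log2 ratio of shares was 0.37 with all libraries, -0.41 to 0.995 leaving out each in turn, -0.06 without DTA- replicate 2 and -0.41 without DTA+ replicate 2. Of 44 named genes past the test, 19 passed without each library and 7 under every alternative in which they were tested: tdTomato, Gt(ROSA)26Sor, Nr4a2, Ostn, Pcp4, Tpd52l1 and Phgdh. With 2 libraries per genotype and 160 to 502 cells in each, small changes and genes under a few UMIs per library could not be resolved.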

Other observations

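A pair of genes below the level limit of the rule for named genes, chosen after their values were seen, were counted in DTA- alone within Dlx5/Runx2 mesenchyme. Wfdc10, a whey acidic protein family gene, had 37, 37, 0 and 0 UMIs in Dlx5/Runx2 mesenchyme, at least 30.6-fold lower in DTA+ against a floor of 3 counts over the group. In other mesenchymal cells it was at 2.19, 3.58, 0.20 and 0.18 CPM. Orm1, an acute phase plasma protein, had 24, 20, 0 and 0 UMIs, at least 18.2-fold lower, and was at 7.63, 7.94, 0.067 and 0.030 CPM in other mesenchymal cells. Both passed edgeR's quasi-likelihood test in Dlx5/Runx2 mesenchyme (adjusted p 0.00039 for Wfdc10 and 0.00094 for Orm1). They were chosen for these counts and entered the test through the DTA- libraries alone, so the p-values restate the choice and support nothing.

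Other genes past the test that belong to no list were also chosen after their values were seen. Igfbp5, which binds insulin-like growth factors, was at 974, 1098, 481 and 572 CPM (log2 fold change -0.99 ± 0.13, adjusted p 0.00088), and Igf1 at 177, 359, 101 and 106 CPM (log2 fold change -1.34 ± 0.24, adjusted p 0.0076). Fabp5, a fatty acid binding protein, was at 782, 1066, 464 and 376 CPM (log2 fold change -1.17 ± 0.15, adjusted p 0.00088). Txnip, an inhibitor of thioredoxin and of glucose uptake, was at 65.6, 58.5, 190 and 150 CPM (log2 fold change 1.38 ± 0.18, adjusted p 0.00088), and Apoe, a lipid carrier, at 94.2, 106, 234 and 215 CPM (log2 fold change 1.14 ± 0.16, adjusted p 0.00094). None of these 5 overlapped between genotypes, which held for 46.9% of all genes tested. As the 5 were chosen for their values, their p-values and their lack of overlap restate the choice and support nothing.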
